A study of Mus musculus with 16 samples.

Results

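The 10 genes described here belong to bone morphogenetic protein (BMP) signaling and to its hepcidin output, and they were followed in liver metastases of mice treated with a TGF-β receptor inhibitor, an immune checkpoint antibody or both. They comprise the ligand genes Bmp2, Bmp4, Bmp5 and Bmp6, the co-receptor gene Hjv, the receptor-regulated SMAD gene Smad9, and the output genes Hamp, Id1, Id2 and Id3. The 10 genes were taken from the 21959 listed in the count tables, and all 10 were among the 13968 that passed the filter on low counts. They were chosen with results of these libraries known, so the differences given for them below are descriptions without p-values. Each gene is set beside Alb, the albumin gene of hepatocytes.

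Tumor RNA came from 16 male C57BL/6 mice that received MC38 mouse colon carcinoma cells in the spleen at 6 weeks of age, with 4 mice in each group. Control mice received PBS. SB525334, an inhibitor of the type I TGF-β receptor ALK5, was given by daily oral gavage at 20 mg/kg. KN046, an antibody to PD-L1 and CTLA-4, was injected into the peritoneum at 10 mg/kg, 2 times a week, and the combination group received both agents. All 16 mice carried tumors, so none of the groups shows liver without a metastasis, and a single implanted cell line stands for the cancer.

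BMP ligands bind receptors on the cell surface and lead to phosphorylation of SMAD1, SMAD5 and SMAD9, which enter the nucleus with SMAD4. In the liver, BMP2 and BMP6 are known as products of sinusoidal endothelial cells that act on hepatocytes, where hemojuvelin, the product of Hjv, serves as their co-receptor. Hepatocytes answer with hepcidin, the product of Hamp, a hormone that closes the iron exporter ferroportin. Id1, Id2 and Id3 encode inhibitors of DNA binding and are induced by BMP signals in many cell types.

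Short stretches of sequence upstream of Id2 and Smad9 are shown because they hold the letters GGCGCC, known as the core of BMP response elements. In the 30 bases printed for each gene, capitals mark GGCGCC. They were read 5′ to 3′ from the RefSeq promoter table and placed on GRCm39 by exact match.
Id2: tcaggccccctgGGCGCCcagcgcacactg
Smad9: gcacggccgcctGGCGCCcttccagcgcgg
The Id2 stretch is chr12:25146305-25146334 on the minus strand, and its first base lies 243 bases before the RefSeq start. The Smad9 stretch is chr3:54662940-54662969 on the plus strand, with its first base 63 bases before the start. In GENCODE M39, whose transcripts start elsewhere, the Id2 stretch lies in an exon of 4 of 6 transcripts while the last 7 bases of the Smad9 stretch lie within its annotated gene and the rest before it.

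Windows of 250 bases before the RefSeq start were searched on both strands for 6 of the 10 genes, Bmp4, Bmp5, Bmp6, Id2, Id3 and Smad9. Those of Bmp2, Hjv, Hamp and Id1 were not analysed here, so nothing is said of the motifs there. GGCGCC occurred once in the windows of Id2 and Smad9 and in 9.59% of 32841 RefSeq windows of this length. The SMAD box CAGAC occurred once upstream of Bmp5 and Bmp6 and at 2 places upstream of Id3, against 42.2% of all windows with at least 1. The window of Alb held neither motif. A match describes the letters only.

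Total counts per mouse ran from 18368994 to 23877131. Levels are given as CPM, the counts per 1000000 reads of a library, with library sizes set by the TMM method. Differences are log2 fold changes from an edgeR fit over all 16 mice with their standard errors (SE), and a gene is called lower or higher at a Benjamini-Hochberg adjusted p under 0.05 over all genes tested. Control mice 1 and 2 resembled each other closely, as did mice 3 and 4. A chi-square comparison of these 2 pairs gave a median over genes of 1.25 and 0.956, and the remaining pairs within groups gave at least 2.82, so the control group may hold fewer independent samples than 4. The sample titles number the replicates of each group and name no cage or litter.

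Divided by the length of their exons, levels in the control group spanned a wide range. Hamp had 107.8 CPM per kilobase, and Id3 and Id1 had 18.5 and 12.9, followed by Id2. Hjv had 1.71 and Bmp2 1.24, while Bmp6, Bmp5, Smad9 and Bmp4 had 0.555, 0.336, 0.226 and 0.137 CPM per kilobase. The ligand and SMAD genes thus rest on few reads, and Bmp4 on 60 reads in the 4 control mice together.

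The ligand genes came in distinct patterns. Bmp2 (chromosome 2 of GRCm39, 133394079 to 133404816) had 8.97, 8.95, 2.28 and 2.72 CPM in the control mice and 0.768, 0.597, 1.89 and 1.03 with SB525334. It had 6.66, 5.15, 5.98 and 3.84 CPM with KN046 and 0.411, 0.276, 0.710 and 0.424 with the combination. Both groups that received SB525334 lay below every control and every KN046 mouse, and the control mice split into a high and a low pair. Log2 fold changes against control came to -2.42 for SB525334 (SE 0.46), -0.09 for KN046 (SE 0.42) and -3.64 for both agents (SE 0.51). Against control mice 1 and 2 alone the SB525334 difference was -3.05, and against mice 3 and 4 alone it was -1.21.

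Bmp6 (chromosome 13, 38529065 to 38684280), the ligand best known for relaying iron load to hepatocytes, had 3.85, 2.79, 0.811 and 1.25 CPM in the control mice. It had 0.678, 0.597, 0.473 and 0.258 CPM with SB525334, 2.45, 3.26, 1.62 and 1.92 with KN046, and 0.359, 0, 0.218 and 0.283 with the combination. Again the control pairs differed, and every mouse given SB525334 lay below all controls. The difference from control was -2.11 on the log2 scale with SB525334 (SE 0.54) and -3.29 with the combination (SE 0.60), where 17 reads remained against 187. Summed reads with the combination were 9.76% of control, with an exact 95% interval of 5.57 to 16.1% that covers counting error only. With mice 3 and 4 as the only controls, the SB525334 difference was -1.03 and was not called, and the call was also lost without control mouse 1 or SB525334 mouse 4.

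Bmp5 (chromosome 9, 75682638 to 75807592) was the one among the 4 ligand genes whose combination and SB525334 mice did not overlap. It had 1.71, 1.75, 0.862 and 1.10 CPM in the control mice, 1.49, 1.11, 1.29 and 0.732 with SB525334 and 1.65, 2.29, 2.12 and 1.20 with KN046. With the combination it had 0, 0, 0.0546 and 0 CPM, a single read in 4 mice. The 3 other groups overlapped, and the combination lay below all of them. That read was 0.942% of the control level (exact 95% interval 0.0237 to 5.36%) and 1.13% of the SB525334 level (0.0282 to 6.40%). The fitted log2 fold changes, -6.16 against control and -5.93 against SB525334, depend on the prior count of the fit. With SB525334 alone the difference from control was -0.23 (SE 0.37).

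Bmp4 (chromosome 14, 46620250 to 46636745) showed no group apart from the others. Its levels were 0.875, 0.663, 0.761 and 0.575 CPM in the control mice, 0.316, 0.637, 0.129 and 0.172 with SB525334, 0.373, 1.41, 1.34 and 0.675 with KN046, and 0.411, 0.441, 0 and 0.896 with the combination. Every group overlapped the control group. The 95% interval of the SB525334 difference ran from -2.56 to 0.22 on the log2 scale and that of the combination from -2.06 to 0.68, so a sizeable decrease would not have been detectable at this depth.

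Hjv (chromosome 3, 96432424 to 96439496) was highest in control mice, followed by KN046, SB525334 and the combination in that order. Its levels were 9.80, 10.7, 11.1 and 11.9 CPM in the control mice, 5.65, 7.88, 9.61 and 6.03 with KN046, 1.27, 1.63, 0.645 and 0.302 with SB525334, and 0.103, 0.276, 0.0546 and 0.236 with the combination. None of these 4 ranges overlapped its neighbour, which held for no other member. The difference from control was -0.58 with KN046 (SE 0.33, 95% interval -1.28 to 0.12), -3.49 with SB525334 (SE 0.38) and -5.96 with the combination (SE 0.47). The combination also lay 2.48 lower than SB525334 on the log2 scale (SE 0.51), resting on 13 reads against 91, a call lost with the 8 compared mice alone.

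Smad9 (chromosome 3, 54662963 to 54708680), one of the receptor-regulated SMAD genes of the BMP pathway and less abundant per exon length than Smad1 and Smad5, had 1.66, 2.13, 0.811 and 0.679 CPM in the control mice. It had 0.0904, 0.0796, 0.0861 and 0.0431 CPM with SB525334, which is 7 reads in 4 mice, and 0, 0, 0.273 and 0 with the combination, where all 5 reads came from mouse 3. With KN046 it had 0.586, 3.01, 0.447 and 0.883. Every mouse given SB525334 lay below every control mouse, and KN046 mouse 2 lay above all of them. The reads with SB525334 were 5.53% of control (exact 95% interval 2.17 to 11.8%), and those with the combination were 4.80% (1.53 to 11.5%). Between the combination and SB525334 the log2 difference was -0.18 with a 95% interval of -2.70 to 2.35, too wide to show whether they differed.

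Hamp (chromosome 7, 30641766 to 30643990) covered the widest span of the 10 genes. In the control mice it had 89.2, 93.4, 96.8 and 104.4 CPM. With SB525334 it had 9.49, 14.3, 7.75 and 1.85 CPM, and with the combination 0.103, 0.110, 0.491 and 0.0471, which is 2, 2, 9 and 1 reads. These 3 groups did not overlap. KN046 mice had 4.69, 170.3, 26.7 and 69.3 CPM and so covered a range from below most SB525334 mice to above every control mouse.

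The difference of Hamp from control was -3.52 on the log2 scale with SB525334 (SE 0.72), -8.99 with the combination (SE 1.11) and -0.50 with KN046 (SE 0.64, 95% interval -1.85 to 0.85). The 14 reads with the combination were 0.190% of the control level (exact 95% interval 0.104 to 0.319%) and 2.15% of the SB525334 level (1.17 to 3.63%). Hamp2, which the authors' counting could confuse with Hamp, had 3 reads in the control group, 2 with SB525334 and 0 in the other groups.

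Id1, Id2 and Id3 kept far more of their control level than Hamp. Id1 (chromosome 2, 152566218 to 152579544) had 20.1, 22.4, 23.6 and 25.1 CPM in the control mice, 17.5, 18.4, 19.8 and 15.1 with SB525334 and 19.3, 19.0, 11.8 and 18.8 with the combination. All 8 mice given SB525334 lay below the 4 controls, yet the differences were small, -0.37 (SE 0.22) and -0.40 (SE 0.22), and their 95% intervals reached above 0. KN046 mice had 15.2, 25.2, 12.4 and 27.4 CPM, on both sides of the controls.

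Id2 (chromosome 12, 25143798 to 25147282) had 35.0, 34.0, 43.1 and 41.3 CPM in the control mice, 19.0, 12.2, 18.5 and 11.3 with SB525334, and 14.6, 25.8, 20.7 and 26.2 with the combination. Neither treated group overlapped the controls. The difference was -1.33 with SB525334 (SE 0.24) and -0.81 with the combination (SE 0.24), which makes Id2 the one called member whose combination difference was the smaller. Between combination and SB525334 it was 0.52 (SE 0.24, 95% interval 0.02 to 1.02), and their mice overlapped. With KN046 it had 20.4, 46.4, 28.6 and 29.98 CPM. The call of Id2 with the combination was lost without control mouse 3 or 4, without combination mouse 1 or 3, with the control pairs merged and against either pair alone, over log2 fold changes from -0.96 to -0.63.

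Id3 (chromosome 4, 135870808 to 135873066) had 24.98, 25.7, 42.2 and 39.5 CPM in the control mice, 12.1, 14.9, 13.8 and 10.5 with SB525334, 7.91, 14.5, 6.33 and 8.77 with the combination, and 13.9, 39.2, 20.9 and 31.3 with KN046. Both groups given SB525334 lay below all controls and overlapped each other. The difference was -1.37 with SB525334 (SE 0.29) and -1.82 with the combination (SE 0.30), and it was no longer called with SB525334 when control mice 1 and 2 were the only controls (-0.98).

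**Figure D1:**
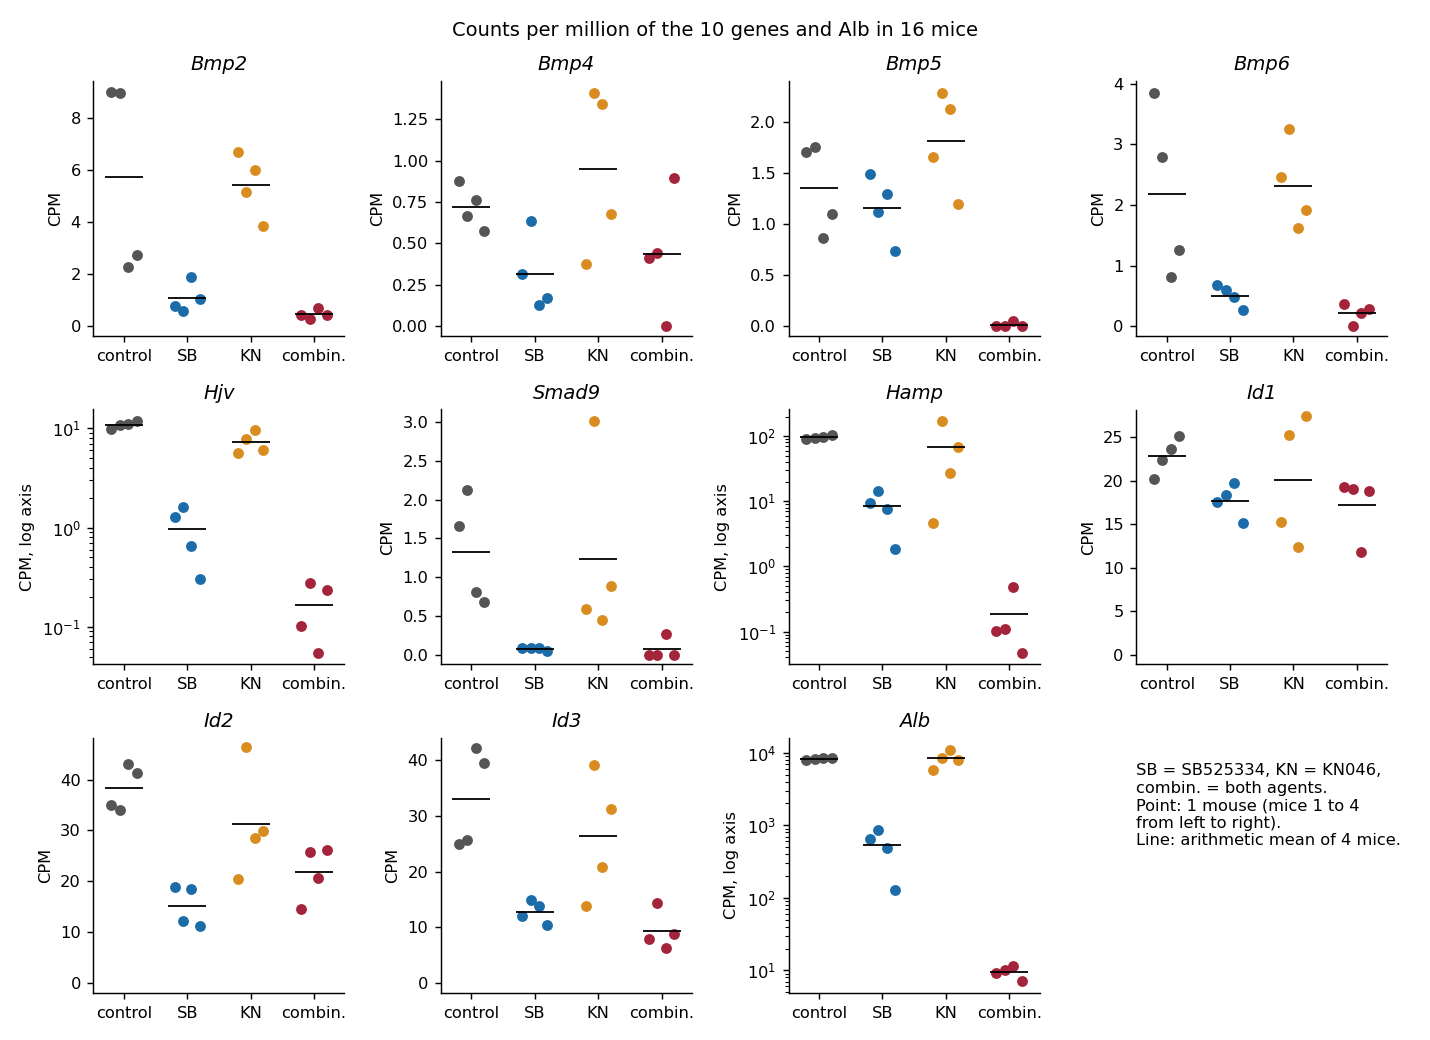
Level of the 10 genes and Alb in CPM (vertical axis, logarithmic for Hjv, Hamp and Alb) in the 4 groups of 4 mice (horizontal axis). Points are mice and lines are group means. Hamp, Hjv and Alb reach their lowest levels with the combination, whereas Id1 stays between 11.8 and 27.4 CPM in all 16 mice.

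Counted over the members, 7 were called lower with SB525334 (all but Bmp4, Bmp5 and Id1) and 0 higher, where 9.22% of all genes tested were called lower and 0.394% higher. With the combination 8 were called lower (all but Bmp4 and Id1) and 0 higher, against 9.74% and 1.37% of all genes. With KN046 0 members were called in either direction by edgeR, 0 at an unadjusted p under 0.05 and 0 by DESeq2, against 2.4% of all genes lower and 1.6% higher. In 8 members all 4 SB525334 mice lay below all 4 control mice (13.3% of all genes), and in 9 members all combination mice did (12.1% of all genes). The members' median log2 fold change was -1.74 for SB525334, -0.14 for KN046 and -3.47 for both agents, while that of all genes tested lay within 0.026 of 0 in each. Since the members were chosen with these comparisons known, the counts describe the choice. All 3 comparisons share the control mice.

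Against KN046, the combination had 7 members called lower (all but Bmp4, Id1 and Id2) and 0 higher, with 14.5% of all genes lower and 9.89% higher. Against SB525334 alone it had 3 called lower, Bmp5, Hjv and Hamp, and 0 higher, with 3.03% and 0.544% of all genes. The interaction asks whether the SB525334 difference changed in the presence of KN046. It was called lower for 1 member, Bmp5 at -6.35, with 2.55% of all genes lower and 1.73% higher. Hamp had an interaction of -4.97 (95% interval -7.92 to -2.03) and Hjv of -1.90 (-3.20 to -0.61), both called by DESeq2 and not by edgeR. Single mice decided these calls. Without SB525334 mouse 4 edgeR called Hamp and Hjv, without KN046 mouse 1 or 3 it called Hamp, and without KN046 mouse 2 it called Id2 (0.81 with all mice).

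**Figure D2:**
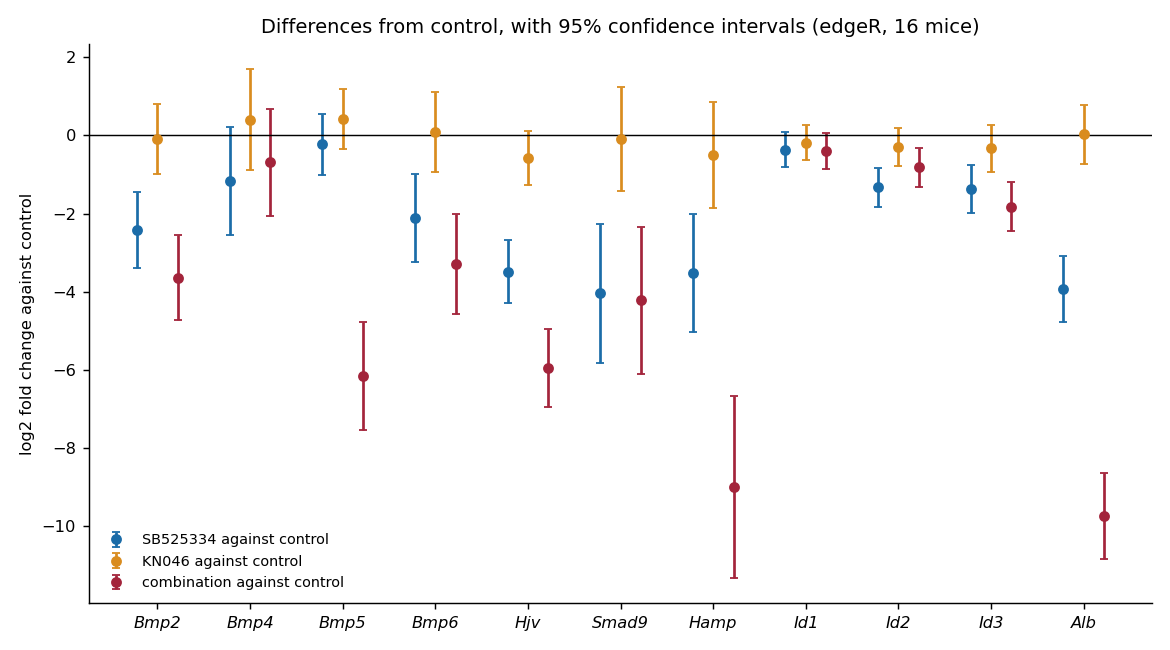
Log2 fold change against control (vertical axis) of each gene (horizontal axis), with 95% confidence intervals from edgeR, for SB525334, KN046 and the combination. Hamp at -8.99 comes nearest to Alb at -9.75 with the combination, and every KN046 interval crosses 0.

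The hepatocyte gene Alb was also lower in both groups given SB525334. It fell by more than every member in each, except Smad9 with SB525334 alone (-4.04). It had 7843, 8102, 8383 and 8414 CPM in the control mice, 649.8, 873.9, 487.2 and 128.8 with SB525334, 5742, 8551, 11060.3 and 8016 with KN046, and 9.35, 10.1, 11.6 and 7.07 with the combination. Its log2 fold change was -3.94 with SB525334 (SE 0.40) and -9.75 with the combination (SE 0.53). All 15 genes of a hepatocyte marker list were called lower in both comparisons, with a median of -3.61 (from -4.42 for Cps1 to -3.02 for Ahsg) and of -9.83 (from -11.29 for Hnf4a to -8.63 for Tat). Their summed level was 14162 to 16275 CPM in the control mice, 361.4 to 1827 with SB525334, 8930 to 18043 with KN046 and 13.0 to 20.5 with the combination. None of the 15 was at 0 in all mice of a group. In these bulk samples fewer hepatocytes and less RNA per hepatocyte cannot be told apart.

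Set beside Alb in the same mouse, Hamp held a nearly constant ratio in 2 groups. Hamp reads per 1000 Alb reads were 11.4, 11.5, 11.5 and 12.4 in the control mice and 14.6, 16.3, 15.9 and 14.4 with SB525334, so that every SB525334 mouse lay above every control mouse although Hamp itself was lower. The ratios of Tmprss6, Tfr2 and Trf did the same, while that of Slc40a1 overlapped the controls. In percent of the control mean, Hamp was at 9.89, 14.9, 8.07 and 1.93 in the SB525334 mice. The medians of the hepatocyte list were 8.59, 13.2, 7.67 and 2.33, so Hamp lay below the median in mouse 4. With the combination the Hamp ratios were 10.99, 10.9, 42.5 and 6.67, from 2, 2, 9 and 1 Hamp reads. In mice 1, 2 and 4 the exact 95% counting intervals (1.32 to 40.3, 1.31 to 40.0 and 0.168 to 37.7) covered the control ratios, while in mouse 3 the interval of 19.1 to 82.1 lay above them. KN046 mice had 0.817, 19.9, 2.42 and 8.64 Hamp reads per 1000 Alb reads, a 24.4-fold range, with 3 mice below and 1 above all controls.

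Hjv reads per 1000 Alb reads were 1.25, 1.33, 1.32 and 1.41 in the control mice, and 1.95, 1.87, 1.32 and 2.34 with SB525334, which overlapped the controls in 1 mouse. With KN046 they were 0.984, 0.921, 0.869 and 0.752, all below control, although the Alb level did not separate these groups. With the combination they were 10.99, 27.3, 4.72 and 33.3, from 2, 5, 1 and 5 Hjv reads. Hjv was thus the member whose ratio to Alb lay below that of every control mouse in every KN046 mouse, and no other member did so in any group. Outside the members, Tmprss6 did so too, with 3.31, 5.37, 3.31 and 3.60 reads per 1000 Alb reads with KN046. Its lowest control ratio was 5.67. The ratio of Tfr2 overlapped the controls. The low Hjv ratio with KN046 depends on Alb as the reference. In percent of the control mean, Hjv was at 51.9, 72.4, 88.4 and 55.4 in KN046 mice 1 to 4. The medians of the hepatocyte list were 43.8, 106, 101.4 and 76.6, so beside that list Hjv was not low in mouse 1.

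**Figure D3:**
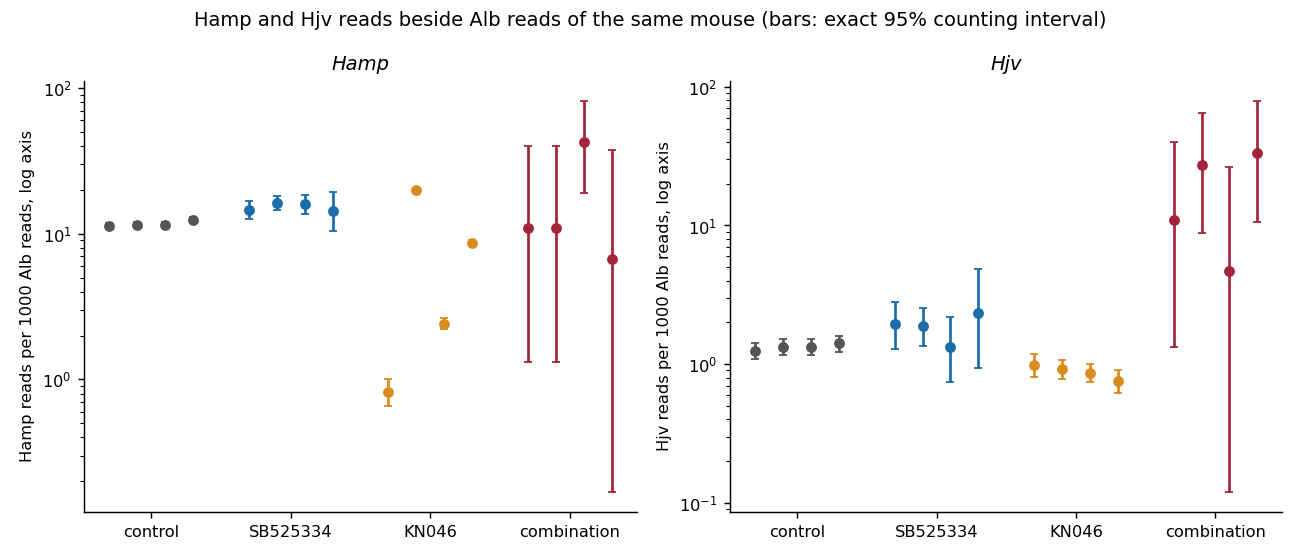
Hamp (left) and Hjv (right) reads per 1000 Alb reads on logarithmic axes in each mouse, grouped by treatment, and bars are exact 95% counting intervals. Hamp ratios of control and SB525334 mice sit between 11.4 and 16.3, and those of KN046 mice between 0.817 and 19.9.

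The ratio to Alb varied among the members. Read per 1000 Alb reads with no pseudocount, 7 of 10 members had a higher ratio in every SB525334 mouse than in every control mouse (Bmp4, Bmp5, Bmp6, Hamp, Id1, Id2 and Id3), and 5 did in the combination (Bmp2, Hjv, Id1, Id2 and Id3). With KN046 0 members did. Smad9 was in neither set, and with SB525334 its mean level was 5.66% of control where that of Alb was 6.54%. With the combination Alb was at 0.116% of control. The gene in the middle of all those tested moved by 0.000591 (SB525334) and 0.0129 (combination) on the log2 scale. A gene of unchanged level thus gains a higher ratio from the fall of Alb, and these counts were not made over all genes. Bmp4 and Bmp6 missed the combination set only through a mouse with 0 reads, mouse 3 for Bmp4 and mouse 2 for Bmp6. The ratio of Id1 was 2.57 to 2.99 in the control mice, 21.0 to 117 with SB525334 and 1024 to 2653 with the combination. Id1 was therefore as abundant in reads as Alb, or more so, in each combination mouse, while its own level was 75.5% of control.

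Markers of other liver cells also differed between the groups. Of 9 tested genes of a sinusoidal endothelial list, 7 were called lower with SB525334 (median log2 fold change -2.42) and 5 with the combination (median -1.64). Their summed level was 223.3 to 468.6 CPM in the control mice, where it was 443.8 and 468.6 in mice 1 and 2 and 223.3 and 230.7 in mice 3 and 4, the pairs that also differed in Bmp2, Bmp6 and Smad9. It was 231.1 to 278.5 with SB525334, 261.3 to 435.8 with KN046 and 247.9 to 263.3 with the combination, and Cd209b was at 0 in all mice given SB525334. A Kupffer cell list had 6 of 7 genes called lower in both comparisons, with sums of 169.5 to 354.6 CPM in control, 10.5 to 25.9 with SB525334, 56.4 to 407.8 with KN046 and 1.86 to 13.4 with the combination. The sums of a fibroblast list ran from 7707 to 8413 CPM in control, 7007 to 11020.3 with SB525334 and 6373 to 11767.6 with the combination, with 0 and 3 of 10 genes called lower. For hepatic stellate genes 1 of 10 was called lower with SB525334 and 6 with the combination, and the sums lay between 807.4 and 1407 CPM in all mice. A general endothelial list had 6 and 4 of 10 genes called lower, with sums of 116 to 249 CPM in control, 48.1 to 113 with SB525334, 184 to 254 with KN046 and 104 to 123 with the combination. Of 5 tested erythroid genes 1 was called lower with SB525334 and 0 with the combination, and sums were 81.7 to 156 CPM in control, 4.65 to 49.1 with SB525334 and 8.41 to 254 with the combination. The split of the control pairs was not particular to the sinusoidal list. Kupffer sums were 332.3 and 354.6 CPM in control mice 1 and 2, and 169.5 and 171.3 in mice 3 and 4. General endothelial sums were 247.0 and 249.3 against 116.0 and 117.7, and erythroid sums 142.8 and 156.0 against 81.7 and 82.7. Hepatocyte, stellate and fibroblast sums differed less between the pairs. The part of these cell types in the levels of the BMP genes was not tested.

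The KN046 group differed within itself more than in its means. Hamp was 36.3-fold higher in the highest mouse than in the lowest, and of 9675 genes with a mean of at least 10 CPM and no mouse at 0 in this group, 0 had a larger ratio (the median was 1.42). In the hepatocyte list the same ratio ran from 1.93 for Alb to 7.44 for Tat. Hamp was at 4.89% of the control mean in mouse 1, 177.5% in mouse 2, 27.8% in mouse 3 and 72.2% in mouse 4. The median of the hepatocyte list in these mice was 43.8, 106, 101.4 and 76.6% of control, so mouse 3 had a hepatocyte level near control and a low Hamp.

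Id2 and Id3 placed the 4 KN046 mice in the same order as Hamp, with mouse 1 lowest, then 3, 4 and 2. Among all genes tested 11% did so, and 2 of the 9 other members did. Smad9 was highest in mouse 2, and Id1 in mouse 4 and then mouse 2. Bmp6 was also highest in mouse 2, while Bmp2 was highest in mouse 1. Of 60 other tested genes of the BMP pathway and of iron handling, 7 (11.7%) had this order, near the share of all genes. They were Gdf6, Acvrl1, Hfe, Atoh8, Il1b, Slc40a1 and Slc11a2, whereas Tfr2, Tmprss6, Smad6, Smad7 and Hp were among those without it. Il1b was at 3.70, 39.3, 11.9 and 32.4% of the control mean in KN046 mice 1 to 4. Atoh8, a transcription factor gene induced by BMP signals in hepatocytes, had 2.88, 11.04, 5.87 and 7.12 CPM in these mice. Slc40a1, which encodes ferroportin and was picked out after its values had been seen, had 10.1, 94.7, 25.3 and 36.0. The Kupffer cell list had sums of 56.4, 407.8, 211.7 and 156.3 CPM in the same mice, and an erythroid list 85.5, 60.1, 319.8 and 64.0. Their part in the spread of Hamp was not tested.

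**Figure D4:**
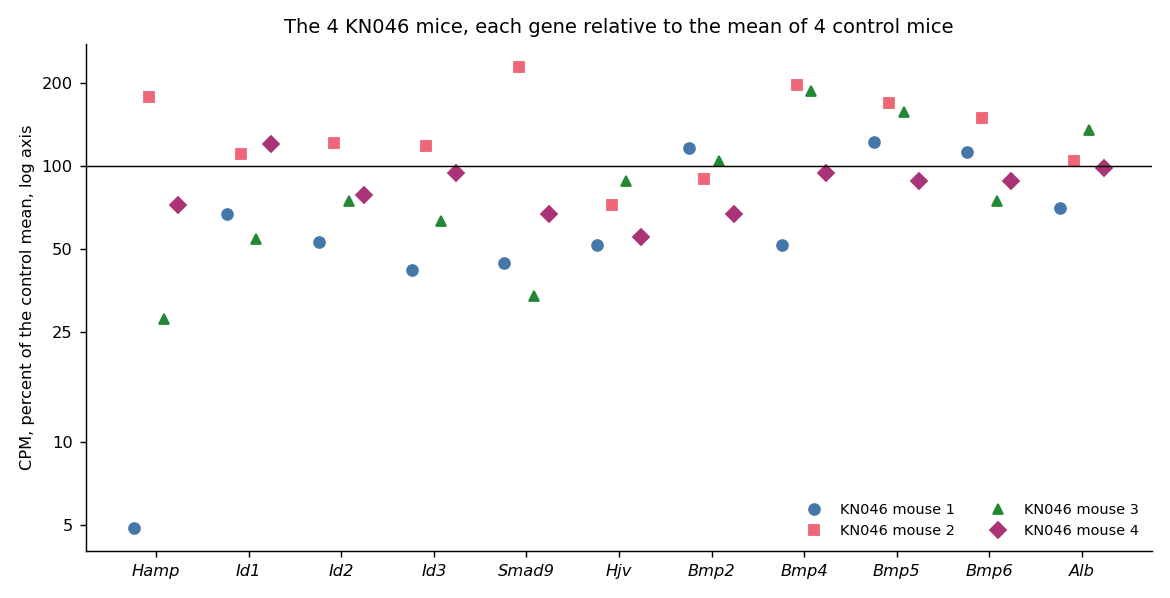
The 4 KN046 mice, with each gene's CPM as a percentage of the mean of the 4 control mice (vertical axis, logarithmic) for the 10 genes and Alb (horizontal axis). Hamp runs from 4.89% in mouse 1 to 177.5% in mouse 2, whereas Alb runs from 70.1 to 135%.

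Among 72 other genes of the BMP pathway and of iron handling, 60 were tested. With SB525334 13 were called lower and 0 higher, with KN046 1 lower and 0 higher, and with the combination 20 lower and 1 higher. Of all genes tested, 9.22, 2.4 and 9.74% were called lower and 0.394, 1.6 and 1.37% higher with SB525334, KN046 and the combination. The count with KN046 was not above the share of all genes. Over the 60 genes the median log2 fold change was -0.21, -0.01 and -0.14 in the same order. Not tested, for low counts, were Bmp3, Bmp7, Bmp8a, Bmp8b, Gdf5, Gdf7, Bmpr1b, Nog, Chrdl1, Sostdc1, Erfe and Hamp2.

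Of the 3 other ligand genes tested, Gdf2 and Bmp10 encode the circulating ligands BMP9 and BMP10. Bmp10 had 0.350, 0.615, 0.862 and 1.52 CPM in the control mice, 0.226, 0.358, 0.172 and 0.0431 with SB525334, 2.35, 3.31, 2.68 and 2.13 with KN046, and 0 in all 4 combination mice. Every KN046 mouse lay above every control mouse. It was at least 20.8-fold lower with the combination than in control, at least 5.21-fold lower than with SB525334 and at least 67.6-fold lower than with KN046, taking 3 reads over the group as the floor. The SB525334 difference was -2.01 (SE 0.55, adjusted p = 0.0285 from edgeR), called in 9 of 17 alternatives (adjusted p 0.00742 to 0.214) and lost without control mouse 3 or 4 or without SB525334 mouse 1, 3 or 4. With KN046 it was 1.65 (SE 0.47, adjusted p = 0.0617 from edgeR) and was called by DESeq2 and limma.

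Gdf2 had 2.49, 3.17, 3.80 and 3.24 CPM in the control mice, 0.904, 1.59, 1.29 and 0.862 with SB525334, 6.13, 4.38, 13.0 and 4.21 with KN046, and 0, 0.331, 0 and 0.330 with the combination. None of the 4 groups overlapped another. It fell with the combination (log2 fold change -4.19, SE 0.62, adjusted p = 6.28e-05 from edgeR). The SB525334 difference of -1.44 (adjusted p = 0.0782 from edgeR) was called by DESeq2 and with the 8 compared mice alone, and the KN046 difference of 1.12 (adjusted p = 0.160 from edgeR) by DESeq2. Gdf6 fell with the combination (-1.79, adjusted p = 0.00189 from edgeR). Thus all 3 tested ligand genes were called lower with the combination, and edgeR called none with KN046.

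No receptor gene was called against control by edgeR. Of 6 tested, 0 passed the threshold in any of the 3 comparisons, with 0, 1 and 0 at an unadjusted p under 0.05 for SB525334, KN046 and the combination, and Acvrl1 was called with KN046 by DESeq2. With 9.22, 2.4 and 9.74% of all genes called lower in these comparisons, 0 of 6 does not set the receptor genes apart. Bmpr2, the most abundant of them, had 112 ± 13.5 CPM in control, 105 ± 8.09 with SB525334, 132 ± 14.0 with KN046 and 113 ± 18.2 with both agents (SD, n = 4 each). Between the combination and KN046 Acvrl1, the receptor of BMP9 and BMP10 on endothelium, was higher by 0.67 (adjusted p = 0.0305 from edgeR) and Acvr2a was lower (-0.50, adjusted p = 0.0380 from edgeR). These were called in 12 and 11 of 17 alternatives, and both were lost without KN046 mouse 1 or combination mouse 3 or 4.

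Among co-receptors and iron sensors, Tfr2 and Tmprss6, both known from hepatocytes, moved like Hjv. Tfr2, a transferrin sensor that supports hepcidin, had 42.8 to 55.8 CPM in the control mice, 2.97 to 7.09 with SB525334, 20.7 to 55.0 with KN046 and 1.27 to 2.41 with the combination. It fell in both comparisons, with log2 fold changes of -3.24 and -4.82 (SE 0.28 and 0.32, adjusted p = 8.19e-07 and 3.38e-09 from edgeR). Tmprss6, a protease that cleaves hemojuvelin and restrains hepcidin, fell from 48.8 ± 3.40 CPM in control to 4.02 ± 2.07 with SB525334 and 0.706 ± 0.394 with both agents (SD, n = 4), log2 fold changes of -3.60 and -6.11 (adjusted p = 1.41e-06 and 6.24e-09 from edgeR). A gene that supports hepcidin and one that restrains it were thus both lower. Eng, an endothelial co-receptor, fell in both (-1.14 and -1.08, adjusted p = 0.00144 and 0.00203 from edgeR), a call lost in 1 of 19 alternatives for each. Neo1, Hfe, Rgma and Rgmb were not called, and Neo1, the most abundant, had log2 fold changes of 0.11, 0.27 and 0.01 with SB525334, KN046 and the combination.

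Of the other SMAD genes, Smad1, Smad4 and Smad5 were not called against control by edgeR with all mice, and Smad5, the most abundant, was 131 ± 10.1 CPM in control and 157 ± 7.76 with SB525334 (SD, n = 4, log2 fold change 0.27, adjusted p = 0.0842 from edgeR). DESeq2 called Smad5 and Smad6 with SB525334, and edgeR called Smad1 with KN046 when KN046 mouse 2 was left out. The inhibitory Smad7, an output of both BMP and TGF-β signals, fell from 55.3 ± 1.61 to 37.8 ± 5.15 CPM with SB525334 and to 39.2 ± 2.97 with both agents (SD, n = 4, log2 fold change -0.55 and -0.49, adjusted p = 0.0295 and 0.0484 from edgeR). These calls were made in 10 and 4 of 19 alternatives and were lost when any control mouse was left out. Smad6, the inhibitor more particular to BMP signals, fell with the combination (-0.93, adjusted p = 0.00259 from edgeR).

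Of 9 antagonist genes tested, Fst, which encodes follistatin, fell with SB525334 and with the combination (-1.95 and -2.47, adjusted p = 0.00267 and 3.55e-04 from edgeR). Bmper fell with the combination (-1.85, adjusted p = 9.27e-05 from edgeR), and DESeq2 called it with SB525334 as well. Fstl1, the most abundant, kept between 739 and 850 CPM as a group mean. Among 6 other targets Atoh8 fell with SB525334 and with the combination (-2.35 and -4.56, adjusted p = 3.99e-04 and 1.03e-06 from edgeR). Msx1 rose by 0.40 with the combination (adjusted p = 0.0413 from edgeR), called in 6 of 19 alternatives and lost without any 1 of the control mice or of combination mice 2 to 4. Smurf1, the most abundant, was called in no comparison with control.

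The IL-6 arm, the inflammatory route to hepcidin, held 1 call in the comparisons with control. Il1b had 20.2 ± 6.72 CPM in control, 7.61 ± 5.58 with SB525334, 4.41 ± 3.38 with KN046 and 17.6 ± 8.09 with both agents (SD, n = 4). Its fall with KN046, -2.19 on the log2 scale (adjusted p = 0.0458 from edgeR), was called in 7 of 19 alternatives and lost without any control mouse or without KN046 mouse 1, 3 or 4. Il6 itself had 8 to 35 reads per group, and Il6st, Stat3, Socs3 and Il6ra were not called.

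Iron handling genes included the largest falls among the 60. Of 18 tested, 6 fell with SB525334 and 8 with the combination, where 9.22% and 9.74% of all genes were called lower. Hpx, which encodes the heme carrier hemopexin, fell from 1681 ± 507 CPM to 165 ± 69.9 with SB525334 and 1.29 ± 0.442 with both agents (SD, n = 4), log2 fold changes of -3.34 and -10.36 (adjusted p = 4.04e-06 and 2.59e-10 from edgeR). Hp, the haptoglobin gene, fell in both (-3.23 and -8.31), as did Trf, the transferrin gene (-3.04 and -6.19, adjusted p = 2.94e-05, 3.78e-09, 1.07e-06 and 3.87e-10 from edgeR). Trf had 4814 ± 1032 CPM in control and 65.9 ± 10.9 with the combination (SD, n = 4). The hepatocyte list had a median of -3.61 (from -4.42 to -3.02) with SB525334 and of -9.83 (from -11.29 to -8.63) with the combination. With SB525334 Hpx, Hp and Trf lay within the range of that list, and with the combination Hpx did while Hp and Trf fell by less. The part of hepatocyte RNA in these falls was not tested. Slc40a1 fell in both (-2.96 and -2.99, adjusted p = 5.27e-04 and 4.03e-04 from edgeR), and its level was 76.3, 74.5, 32.8 and 29.2 CPM in the control mice, 4.61 to 7.68 with SB525334 and 4.47 to 10.2 with the combination. Between the combination and SB525334 the log2 difference of Slc40a1 was -0.03 with a 95% interval of -1.12 to 1.05, while that of Trf was -3.15 (adjusted p = 1.28e-06 from edgeR). The ferritin gene Fth1 was not called in any comparison with control.

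**Figure D5:**
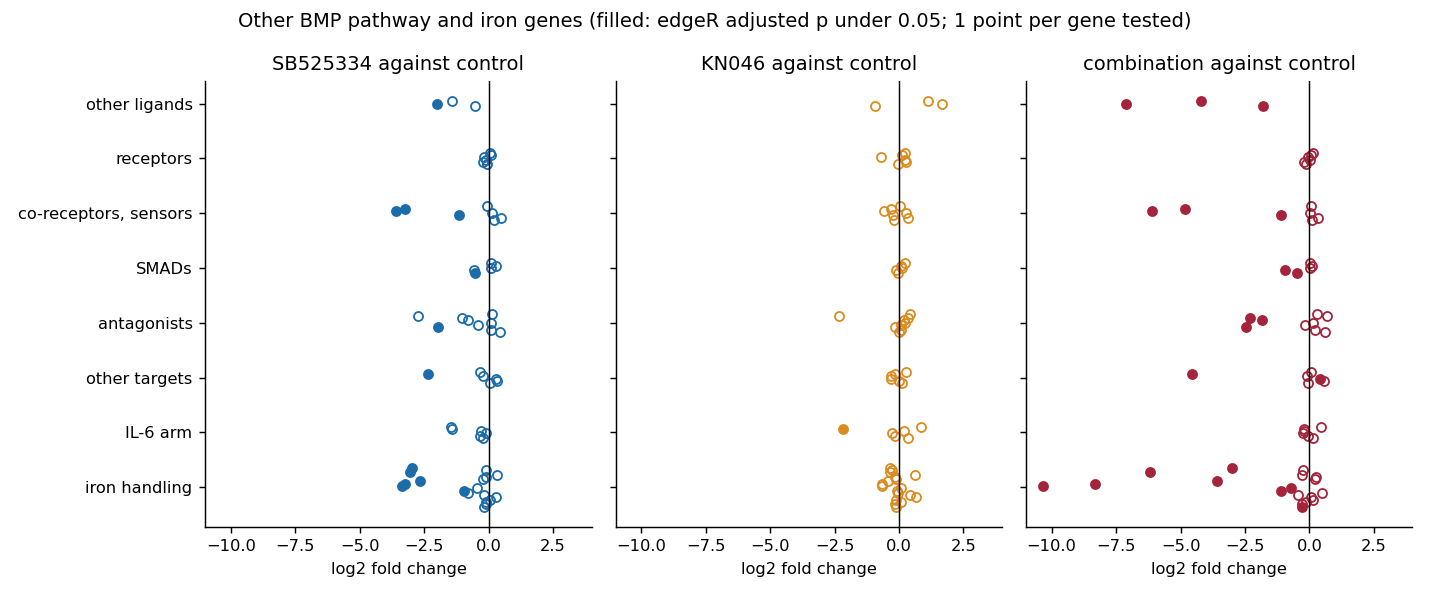
Log2 fold change against control (horizontal axis) of the 60 other BMP pathway and iron genes tested, by class (vertical axis), with 1 panel per treatment, and filled points were called by edgeR at an adjusted p under 0.05. Receptors hold 0 filled points, and the lowest point is Hpx at -10.36 with the combination.

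Likeness to each member was measured over the 16 mice as the root mean square difference of log2(CPM + 1) values taken relative to the control mean, over 13945 other genes. The nearest genes were Bbox1, Dgat2 and Rarres2 for Hjv (0.166, 0.204 and 0.225), and Cyp2c70, Apoc1 and Akr1c6 for Hamp (0.522, 0.623 and 0.643). Hamp was thus farther from its nearest gene than any other member. For Bmp2 they were Adam23, Shroom2 and Adgrg3 (0.233, 0.361 and 0.378), for Bmp6 Cdcp1, Cecr2 and Sema6d (0.249, 0.277 and 0.281), and for Bmp5 Gpc6, Spats2l and Nrg4 (0.282, 0.290 and 0.309). Id1 was nearest to Tnnt1 (0.159), Id2 to Tst (0.268), Id3 to Ugt1a1 (0.310), Smad9 to Slc17a8 (0.206) and Bmp4 to Asrgl1 (0.205). The measure is small for any gene of low level, so it places weakly expressed genes near each other.

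Several members share their locus with another annotated gene. Genes on the opposite strand overlap Bmp4, Bmp5, Bmp6, Hamp, Id1, Id2 and Id3 in GENCODE M39, and Gm44662 covers all 2225 bases of Hamp. A gene of unknown coding status also overlaps Bmp5 on the same strand. These overlaps are of whole gene spans, not of exons. The strand setting of the counting is not given in the sources used here, so the effect of the partners on the counts is not known.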

How the data were processed

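RNA from liver metastases of 16 mice, 4 per group, was sequenced on an Illumina instrument. Per the labels and the methods, the authors used cutadapt 2.7 for trimming, HISAT2 2.2.1 for alignment to GRCm39 and HTSeq 2.0.4 for counting. They deposited raw counts per gene. They also deposited the counts divided by a DESeq2 1.38.3 size factor and rounded, treated here as a score, and 100% of these lay within 1 of that quotient. Strand and multi-mapping settings are not given in the sources used here.

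Raw counts of 21959 genes (21770 identifiers in GENCODE M39) were fitted by the quasi-likelihood method of edgeR 4.0.16 (R 4.3.3) for 4 groups over 16 mice. Library sizes were scaled by TMM, filterByExpr (min.count 10) left 13968 genes, and Benjamini-Hochberg adjustment ran over all of them, with a threshold of 0.05. The common biological coefficient of variation was 20.1%. Each treatment was compared with control and the combination with each agent, and the interaction was tested. Totals of 18368994 to 23877131 counts set the precision, and exact 95% intervals cover counting error only. The members and all gene lists were chosen with earlier results of these data known, so no p-values are given for members. Beyond the members and Alb, a pathway gene was named if it passed the threshold (at most 3 each way per list and comparison) or was the most abundant of its list. Slc40a1, Tfrc, Socs3, the genes listed as not called and those listed for their order in KN046 mice were added after their values were seen. Promoter windows came from RefSeq. Some results are not reported here.

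Alternatives were DESeq2 1.42.0, limma 3.58.1 on log2(value + 1) of the deposited scores, RLE and upper quartile factors, other filters on low counts, the 8 compared mice alone, a replicate block, merged control pairs, each mouse left out, and, for the ratio to Alb, priors of 0.1 and 0.5 CPM or the hepatocyte list. Each control pair alone and the ratio with no pseudocount were added after the data were seen. The script was tested on simulated counts for the combination against control. Of 13825 genes, 200 had been changed 4-fold, and edgeR recovered all 200 and called 6 unchanged ones. DESeq2 recovered all 200 and called 17 unchanged ones. The changed genes were drawn above a floor on mean counts, with the same spread for all genes and independent libraries. Genes of few reads, genes of large spread and near-identical control pairs were thus not covered.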

Additional observations from a re-analysis of the deposited data

Results flagged for a closer look

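A single mouse stood far from the other 3 of its group in 5 of 44 sets of 4 values (10 members and Alb in 4 groups). Chance gives about 1 in 20, or 2.2, but for Bmp5 and Smad9 with the combination the other 3 mice were at 0, so that any read sets the mouse apart and the chance rate does not apply. Combination mouse 3 did so for 4 genes: Hamp at 0.491 CPM and Smad9 at 0.273 were above the other mice, Bmp5 at 0.0546 had the only read of its group, and Id1 at 11.8 CPM lay below. KN046 mouse 2 stood apart for Smad9 at 3.01 CPM. The values of Hamp, Smad9 and Bmp5 in mouse 3 rest on 9, 5 and 1 reads.

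The SB525334 difference (log2) differed with and without KN046 in the interaction test for 9 of the genes described. For Bmp5 it was lower by 6.35 with KN046, an interaction of -6.35, given as a description since Bmp5 is a member. Among other ligand genes the interaction was -3.87 for Gdf2 (adjusted p = 0.00769 from edgeR) and -6.75 for Bmp10 (adjusted p = 0.00659), a fitted value that depends on the prior count because Bmp10 had 0 reads with the combination. It was -1.93 for Tmprss6 (adjusted p = 0.0496), -2.79 for Trf (adjusted p = 2.43e-04), -4.41 for Hp (adjusted p = 2.53e-04), -6.36 for Hpx (adjusted p = 3.21e-06) and -1.24 for the transferrin receptor gene Tfrc (adjusted p = 0.0361), all from edgeR. Il1b had a positive interaction of 3.40 (adjusted p = 0.0203 from edgeR), being low with either agent alone and near control with both. All 15 hepatocyte markers also had a negative interaction, with a median of -6.16. Over 24 alternatives Gdf2, Trf, Hp and Hpx were called in all, Bmp10 in all 23 that tested it, Il1b in 22, Tfrc in 12 and Tmprss6 in 6.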

How the results depend on the processing

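Over all alternatives, 856 member fold changes moved by less than the spread between mice, 39 by more, and 0 called values reversed. Members called with SB525334 numbered 7, or 6 to 7 with 1 mouse left out, and 4 against control mice 3 and 4 only (without Bmp2, Bmp6 and Smad9). Bmp6 also lost this call in limma and without control mouse 1 or SB525334 mouse 4, and Smad9 with a mean of at least 1 CPM required, where it was not tested. With the combination 8 were called, or 7 to 8 with 1 mouse left out, and 6 against control mice 3 and 4 only (without Id2 and Smad9). Members called in the interaction numbered 1, against 3 in DESeq2, 2 with no filter on low counts, and 1 to 3 with 1 mouse left out. The single other gene called with KN046 became 4 in DESeq2, 2 in limma, 0 with the 8 mice alone, 0 with the replicate block, 0 with control pairs merged, 0 against control mice 1 and 2 only, and 0 to 6 with 1 mouse left out (6 without KN046 mouse 2). The 11 other genes called between combination and SB525334 became 7 with the 8 mice alone and 6 to 10 with 1 mouse left out (6 without SB525334 mouse 2). The 8 other genes called in the interaction became 5 with the replicate block, 5 with control pairs merged and 6 to 11 with 1 mouse left out. The ratio to Alb was higher in every SB525334 mouse for 8 members with a prior of 0.1 CPM (10 with 0.5 CPM, 6 against the hepatocyte list, 7 with no pseudocount), and in every combination mouse for 10, against 5 with no pseudocount. These ratio counts were not made over all genes. The cause of the changes between alternatives was not tested.

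Over 24 pairs of samples with the same replicate number, the correlation of deviations from group means ran from -0.444 to 0.486, with 8 over 0.1. Pairs with different numbers were not compared, so these values cannot decide whether replicate numbers pair the samples. With the numbers as a block, members called numbered 7, 0 and 8 for SB525334, KN046 and both agents against control. Depth limits Bmp5, Smad9, Hamp and Hjv with the combination, where 1 to 14 reads remained.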
